A study of Homo sapiens with 9 samples.

Results

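The 51 genes described here encode the machinery that copies DNA and the proteins that carry a cell from G1 into S phase. They were chosen by gene symbol for their function. The rule holds no measured value, but earlier results of these data were known when the list was made. The list holds the MCM helicase and its loaders, the GINS and CDC45 activators, the sliding clamp and its loader, the replicative polymerases, RPA, the Okazaki fragment enzymes, the enzymes of dNTP supply, chromatin assembly factors, the G1/S cyclins and kinases, and the factors E2F1 and E2F2. All 51 had a row among the 15570 genes of the deposited expression table. All 51 also passed the filter used for testing (3 or more of the 9 libraries at 1 FPKM or above), which left 10818 genes in all. FPKM, fragments per kilobase of transcript with sequencing depth scaled out, divides a gene's level by transcript length so that genes can be set side by side. In these libraries level still followed length differently between groups, as described below, so such comparisons are approximate.

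The cells were hCMEC/D3, a line grown from the endothelium of human brain microvessels. It was immortalised with telomerase and a viral large T antigen, a protein that binds the retinoblastoma family, and all 3 groups carry both. Control cells (n = 3) had no deprivation. OGD cells (n = 3) were grown to 80% confluence, given medium without glucose and held 4 h in 95% N2 and 5% CO2. OGD/R cells (n = 3) had the same deprivation and then 16 h in normal medium at 21% O2 and 5% CO2. Cell density, handling and medium changes of the control cells are not given, so deprivation and these cannot be told apart.

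Replication is prepared in G1, when the origin recognition complex with CDC6 and CDT1 loads MCM2-7, the ring-shaped helicase that unwinds DNA, onto origins. CDC45 and GINS then switch the helicase on, and polymerase alpha with primase starts each strand. Polymerases delta and epsilon extend it, held on DNA by the clamp PCNA. Cyclin D with CDK4 and cyclin E with CDK2 phosphorylate the retinoblastoma protein, which frees E2F factors to transcribe many of these genes once per cycle. Brain endothelium in the body rarely divides, whereas the line proliferates in culture.

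Summed FPKM differed between groups. It was highest in OGD (585947 to 605818), lower in control (454237 to 537878) and lowest in OGD/R (442696 to 449248), and the number of reads behind them is unknown. Over all genes tested the log2 fold change had a median of -0.31 from control to OGD, 0.39 from OGD to OGD/R and 0.07 between OGD/R and control. A relative value below is a log2 fold change with that median subtracted. The labelled cell type was only partly visible. Of 14 endothelial markers 12 had a row and 8 of those averaged under 1 FPKM over the 9 libraries, VWF, CLDN5, KDR, TEK and ERG among them, whereas EGFL7 read 4.14 to 14.8 and CLEC14A 5.86 to 15.7 FPKM. Summed markers of other cell types also moved between groups. Control libraries summed to 53.6 to 67.9 FPKM over 7 fibroblast markers, OGD libraries to 33.2 to 34.8 and OGD/R libraries to 91.6 to 111, with PDGFRA, DCN and COL3A1 at or near 0. The 7 pericyte and smooth muscle markers summed to 10.8 to 14.6, 6.33 to 7.94 and 18.8 to 21.6 FPKM, with MYH11 and DES at or near 0, and the part of either in the results below was not tested.

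The promoters of these genes are shown first, because E2F is the factor that textbook accounts place upstream of them. Each window runs from 250 bases before the transcription start to 30 bases after it (RefSeq, GRCh38.p14), 5′ to 3′ on the gene's strand. Capitals mark an E2F-type octamer (TTTCCCGC, TTTCGCGC, TTTGCCGC or TTTGGCGC) on either strand. The 5 genes shown are a helicase pair with more than 1 match, the factor E2F1 itself, UHRF1 and the clamp PCNA. MCM6 (chr2:135876414-135876693, minus strand) and MCM3 (chr6:52284713-52284992, minus strand) stand first, followed by E2F1 (chr20:33686356-33686635, minus strand), UHRF1 (chr19:4909251-4909530, plus strand) and PCNA (chr20:5126593-5126872, minus strand).
MCM6: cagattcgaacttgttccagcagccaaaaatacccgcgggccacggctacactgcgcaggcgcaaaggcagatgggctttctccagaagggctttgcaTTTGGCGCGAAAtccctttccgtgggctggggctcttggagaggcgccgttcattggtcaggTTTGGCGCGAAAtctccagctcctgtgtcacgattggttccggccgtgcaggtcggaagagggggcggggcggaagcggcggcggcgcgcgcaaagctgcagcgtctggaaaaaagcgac
MCM3: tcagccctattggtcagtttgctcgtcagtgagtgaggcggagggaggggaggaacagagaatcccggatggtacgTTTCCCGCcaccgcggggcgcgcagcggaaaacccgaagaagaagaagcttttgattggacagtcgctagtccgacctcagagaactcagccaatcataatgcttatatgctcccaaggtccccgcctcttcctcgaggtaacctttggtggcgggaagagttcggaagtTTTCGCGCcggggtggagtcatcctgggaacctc
E2F1: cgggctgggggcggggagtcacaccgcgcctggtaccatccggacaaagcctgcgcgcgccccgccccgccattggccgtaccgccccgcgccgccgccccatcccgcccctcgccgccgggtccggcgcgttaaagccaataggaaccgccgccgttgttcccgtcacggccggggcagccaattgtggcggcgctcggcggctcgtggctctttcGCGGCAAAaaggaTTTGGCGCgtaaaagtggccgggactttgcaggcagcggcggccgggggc
UHRF1: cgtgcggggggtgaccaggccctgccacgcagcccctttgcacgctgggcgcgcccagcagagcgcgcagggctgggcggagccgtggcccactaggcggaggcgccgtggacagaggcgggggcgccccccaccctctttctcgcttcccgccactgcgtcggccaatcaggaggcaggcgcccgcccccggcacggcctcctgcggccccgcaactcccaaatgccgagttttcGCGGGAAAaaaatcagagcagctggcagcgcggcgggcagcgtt
PCNA: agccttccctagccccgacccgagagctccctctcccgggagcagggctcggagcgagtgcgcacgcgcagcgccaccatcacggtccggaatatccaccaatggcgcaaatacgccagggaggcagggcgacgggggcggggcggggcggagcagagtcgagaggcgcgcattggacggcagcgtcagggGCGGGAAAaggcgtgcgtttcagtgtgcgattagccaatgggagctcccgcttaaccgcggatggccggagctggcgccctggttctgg

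CDK4 is shown beside them because it had the largest rise of the 51 in OGD. Its window (chr12:57752281-57752560, minus strand) held none of the 4 octamers and 3 copies of the E-box CACGTG, in capitals here. The E-box was added to the search after the values had been seen.
CDK4: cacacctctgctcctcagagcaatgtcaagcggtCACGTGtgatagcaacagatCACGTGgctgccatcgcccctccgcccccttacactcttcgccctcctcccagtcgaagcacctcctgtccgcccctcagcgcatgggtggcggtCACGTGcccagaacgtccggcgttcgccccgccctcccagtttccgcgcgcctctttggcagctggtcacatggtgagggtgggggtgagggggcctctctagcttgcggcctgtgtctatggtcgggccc

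An E2F octamer was found in 21 of the 43 members with a RefSeq window (300 bases, 50 of them after the start), or 48.8%. The same search gave 5.96% over 8999 tested genes with a window, 20.6% over 63 other genes of replication and the G1/S transition, and 8% over 25 genes of mitosis and G2/M. In MCM6 the octamer TTTGGCGC overlapped TTTCGCGC on the other strand at each of the 2 places, beginning at -152 and -90 relative to the start (base 0). In E2F1 the matches began at -33 and -20, in UHRF1 at -14 and in PCNA at -59. The UHRF1 window is at a downstream start, inside the RefSeq gene span of 4903080 to 4962154 on chromosome 19. The CHR hexamers TTTGAA and TTCGAA, named for the cell cycle genes homology region of mitotic genes, were in 4.65% of member windows, 72% of mitosis and G2/M windows and 10.9% of all tested. The E-box stood in 6 of 43 member windows (14%), against 10.3% of all tested. A match of letters is a description and not a bound site.

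**Figure D1:**
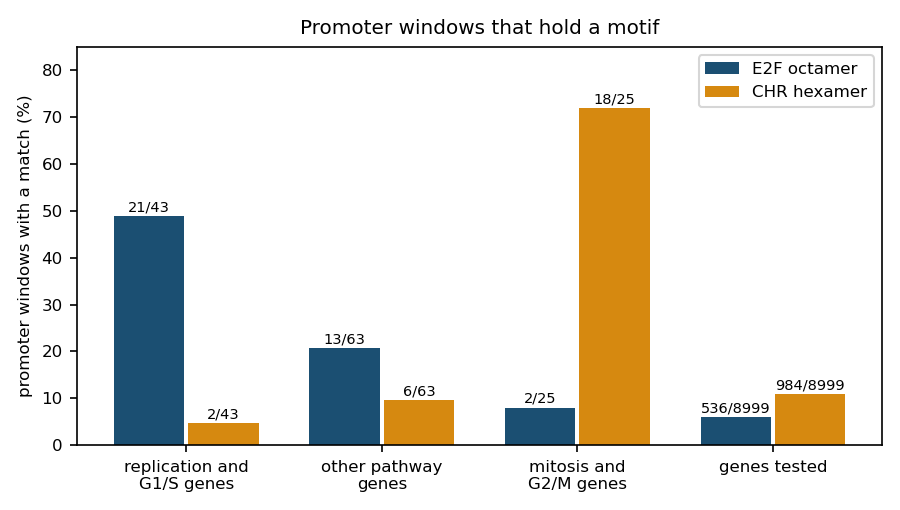
Share of RefSeq promoter windows (300 bases, percent, vertical axis) that hold an E2F octamer (blue) or a CHR hexamer (orange) in 4 sets of genes, with the number of windows above each bar. The octamer bar is highest for the replication and G1/S genes (21 of 43) and the hexamer bar for the mitosis and G2/M genes (18 of 25).

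Members with and without the octamer gave like counts in OGD against control. Of the 21 with it 19 were lower and 0 higher (median log2 fold change -0.65), and of the 22 without it 19 were lower and 1 higher (median -0.53). Over all tested genes 282 of 536 with the octamer were lower (median -0.36), and 3928 of 8463 without it (median -0.31). After recovery, against OGD, 18 of 21 members with it were higher and 0 lower, against 15 higher and 3 lower of the 22 without. Over all tested genes 291 of 536 with it were higher, and 4518 of 8463 without. Of the 6 members with the E-box 5 were lower in OGD against control and 1, CDK4, was higher (median -0.57). Of the 37 without the E-box 33 were lower and 0 higher (median -0.61). Over all tested genes 362 of 929 with the E-box were lower and 156 higher. Without it 3848 of 8070 were lower and 861 higher.

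After 4 h of deprivation most of the 51 genes were lower. After 16 h of recovery 31 of them passed in neither direction against control, a count that depended on the scale between libraries (below). In OGD against control 44 members were lower, 2 were higher, CDK4 and RPA3, and 5 passed in neither direction (CDC6, PRIM1, PRIM2, POLE2 and CCND1). Over all genes tested 46.7% were lower and 11.3% higher (limma, adjusted p under 0.05). The members' median log2 fold change was -0.60, or -0.29 relative to all genes, and 7 were lower and 0 higher by at least 2-fold (4.63% and 1.56% of all genes). In OGD/R against OGD 38 members were higher and 4 lower (RPA3, CDK4, PRIM1 and DUT), against 53.3% and 17.4% of all genes, with a median of 0.52 (relative 0.13). By at least 2-fold, 15 members were higher and 2 lower, against 17% and 3.52% of all genes. These 2 comparisons share the OGD libraries, so an inverse pattern between them is built in.

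In OGD/R against control 10 members were higher, 10 lower and 31 neither, against 24.7% and 16.5% of all genes (median -0.06, relative median -0.13). The higher ones were MCM2, MCM3, MCM5, RFC1, POLA2, POLE, CHAF1A, CHAF1B, UHRF1 and CCND1. The lower ones were RFC3, PRIM1, POLE2, RPA2, RPA3, TK1, DUT, CDK4, CCNE1 and CCNE2. By at least 2-fold, CCND1 alone was higher and 0 members lower (3.04% and 0.444% of all genes). The 51 genes together held 2994 ± 96.6 FPKM in control, against 2231 ± 39.7 in OGD and 2737 ± 188 after recovery (SD, n = 3). As a share of each library's summed FPKM it was 0.556% to 0.639%, 0.361% to 0.382% and 0.574% to 0.663%, so OGD lay below both other groups with no overlap. Replicates of OGD and control did not overlap for 46 lower and 2 higher members (51.8% and 13.2% of all genes), those of OGD/R and OGD for 41 higher and 5 lower (57.8% and 20.4%), and those of OGD/R and control for 9 higher and 12 lower (28.5% and 19.3%). In bulk RNA, fewer cells in S phase and less of each transcript per cell cannot be told apart.

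**Figure D2:**
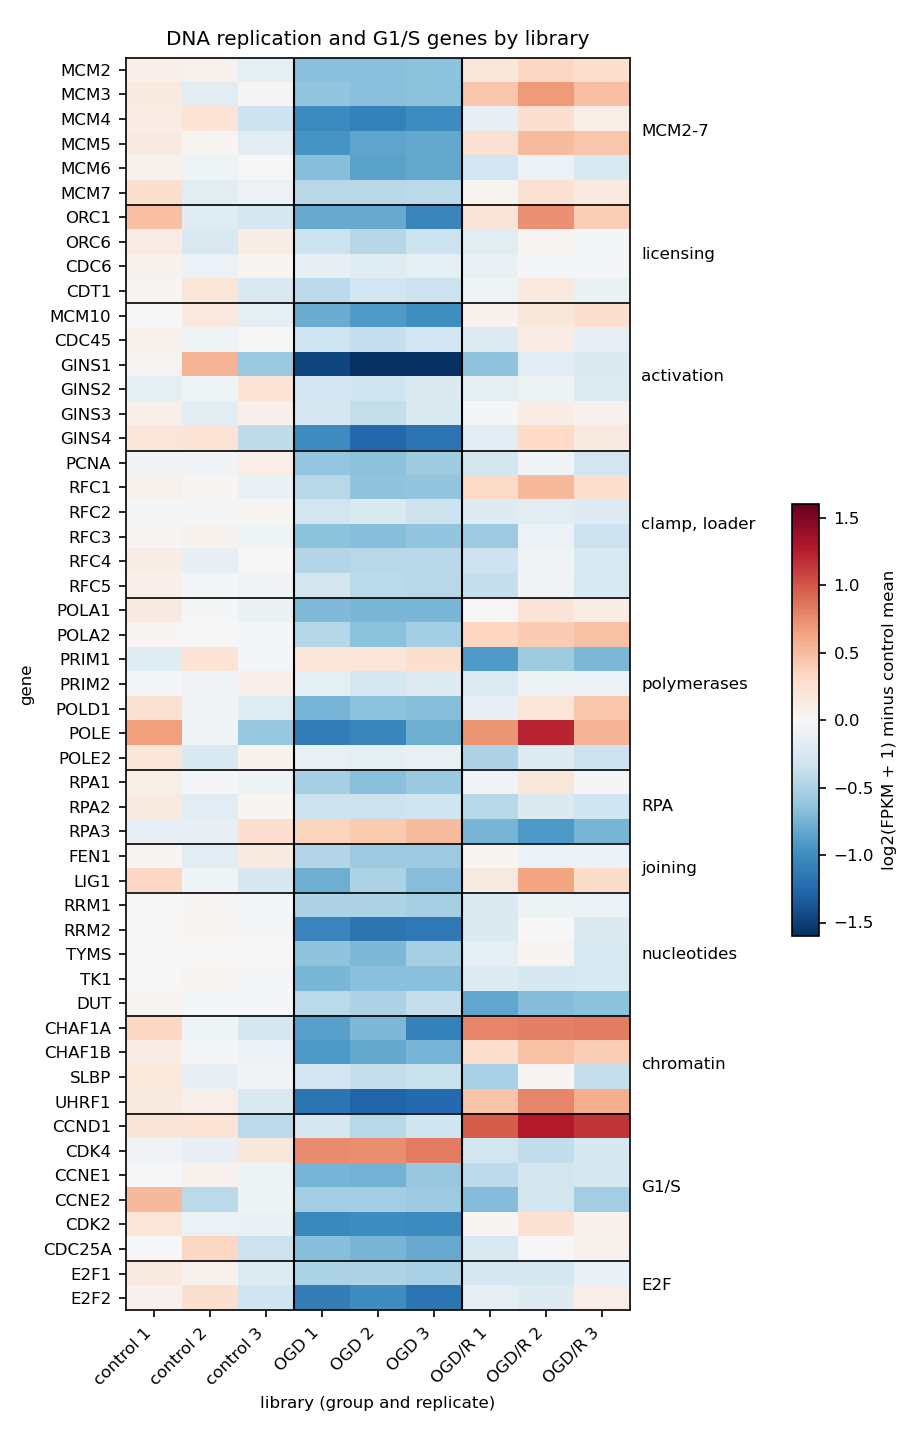
Each row is a gene, grouped by role, and each column a library. Colour gives log2(FPKM + 1) minus the gene's control mean, from blue (lower) to red (higher). The 3 OGD columns are blue in nearly all rows, and CDK4, RPA3 and PRIM1 are the exceptions that are red there and blue in OGD/R.

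How many members passed depended on the scale between libraries. Under 5 other scalings (median-of-ratios, quantile normalization, a common library sum, removal of the trend on transcript length, and that with each library's level removed) the lower count in OGD against control ran from 25 to 48 of 51. Median-of-ratios scaling gave 25 lower and 4 higher members, against 22.4% lower and 27.1% higher among all genes, and quantile normalization 29 lower and 2 higher, against 22.4% and 20.0%. From OGD to OGD/R the same scalings gave 21 higher and 15 lower, and 31 higher and 4 lower, where all genes split into 31.7% higher and 34.97% lower, and 31.4% and 31.3%. The 19 members lower in OGD under all 5 were MCM2, MCM3, MCM4, MCM5, MCM6, ORC1, MCM10, GINS1, GINS4, RFC3, RRM2, TYMS, TK1, CHAF1A, CHAF1B, UHRF1, CCNE1, CDK2 and E2F2, and CDK4 was higher under all 5. For OGD/R against OGD 19 stayed higher (MCM2, MCM3, MCM4, MCM5, ORC1, MCM10, GINS1, GINS4, RFC1, POLA2, POLD1, POLE, LIG1, RRM2, CHAF1A, CHAF1B, UHRF1, CCND1 and CDK2) and 3 lower (PRIM1, RPA3 and CDK4). For OGD/R against control 5 stayed higher (MCM3, MCM5, CHAF1A, UHRF1 and CCND1) and 3 lower (PRIM1, RPA3 and DUT). How many of all genes tested kept a call under all 5 is not given, so these lists are not results about the members alone. A call outside these lists was lost under at least 1 of the 5 scalings and is named scale-dependent below, or is given with the value to which its sign turned.

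The 6 genes of the MCM2-7 helicase were all lower in OGD, with a median log2 fold change of -0.73 (relative -0.42), and all higher in OGD/R than in OGD (median 1.01, relative 0.62). MCM2 (NCBI Gene 4171, GRCh38.p14, chromosome 3, 127598411 to 127622436) read 41.4, 41.3 and 35.3 FPKM in control, 24.3, 24.2 and 24.6 in OGD, and 44.5, 49.6 and 46.9 in OGD/R. The OGD libraries lay close together (SD 0.211 FPKM) and below all others. MCM2 fell by 0.66 on the log2 scale (SE 0.09, adjusted p = 0.000117) and then rose by 0.92 (SE 0.09, adjusted p = 3.13e-06). Its difference of OGD/R from control (0.25, adjusted p = 0.0398) was scale-dependent and lost without control replicate 3 (0.18), any OGD replicate (0.25) or OGD/R replicate 2 (0.22) or 3 (0.25). MCM3 read 57.1, 45.1 and 51.5 FPKM in control, 32.7, 31.7 and 32.0 in OGD, and 69.9, 82.2 and 71.4 in OGD/R. Its 3 OGD/R libraries lay above all control libraries, a log2 difference of 0.53 (SE 0.10, adjusted p = 0.00137). MCM7, the most abundant of the 6, read 157, 115 and 122 FPKM in control, 95.1, 95.9 and 96.4 in OGD, and 134, 155 and 146 in OGD/R. Its fall of 0.44 was the smallest of the 6 and scale-dependent, as was its rise of 0.59.

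MCM4 had the largest fall of the helicase genes (65.6 ± 12.8 to 31.1 ± 0.968 FPKM, log2 fold change -1.03), followed by MCM5 (-0.86) and MCM6 (-0.79). MCM5 ended above control (40.6 ± 3.78 against 30.6 ± 3.54 FPKM, log2 fold change 0.40, adjusted p = 0.0109). MCM6 read 28.4 to 33.0 FPKM in OGD/R and 33.7 to 37.0 in control, with no overlap, yet did not pass (log2 fold change -0.22, adjusted p = 0.0775). It did pass as lower under 4 of the 5 scalings (-0.43 to -0.23) and without OGD/R replicate 2 (-0.28). Its rise from OGD (0.57) was scale-dependent and its sign turned with length trend and library level removed (-0.02). MCM2-7 is a ring with a single copy of each subunit. Its most abundant transcript exceeded its least abundant 4.29 times in control, 5.87 times in OGD and 4.76 times after recovery.

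Among the licensing genes ORC1, the largest subunit of the origin recognition complex, which human cells degrade after S phase begins, moved most. ORC1 read 9.67, 5.72 and 5.30 FPKM in control, 3.39, 3.39 and 2.69 in OGD, and 7.82, 11.7 and 9.08 in OGD/R, so OGD lay below both other groups, which overlapped. The log2 fold changes were -0.89 (SE 0.20, adjusted p = 0.00263) and then 1.33 (SE 0.20, adjusted p = 7.82e-05). CDC6, the ATPase that loads the helicase together with CDT1, was near flat: 29.3, 26.1 and 28.4 FPKM in control, 25.4, 24.3 and 24.9 in OGD, and 25.7, 27.4 and 27.6 in OGD/R. Its OGD libraries were the lowest 3 of the 9, but the log2 fold change of -0.16 did not pass (SE 0.09, adjusted p = 0.124). It passed as higher after median-of-ratios scaling (0.21) and as lower with a common library sum (-0.43). CDT1 read 14.8, 16.5 and 11.9 FPKM in control, 10.4, 11.3 and 10.98 in OGD, and 13.6, 16.1 and 13.2 in OGD/R. Its fall (-0.36) and rise (0.35) passed, were both scale-dependent and were close to the median of all genes (relative -0.05 and -0.03), and the rise turned sign after median-of-ratios scaling (-0.10), quantile normalization (-0.10) and length trend and level removal (-0.14). The fall was lost without any OGD replicate or control replicate 1 or 2 (-0.38 to -0.26), and the rise without OGD replicate 1 or 3 or OGD/R replicate 2 (0.27 to 0.36). ORC6, the smallest ORC subunit and the most abundant of the 4, read 56.5, 43.5 and 56.0 FPKM in control, 40.5, 37.5 and 40.4 in OGD, and 45.9, 52.9 and 50.99 in OGD/R. Its fall was scale-dependent, its relative values were -0.07 and -0.06, and its rise turned to -0.15 after median-of-ratios scaling and was lost without OGD replicate 2 or OGD/R replicate 2 (0.29 each).

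The activators split. GINS1 and GINS4, subunits of the GINS complex, fell by far more than GINS2 and GINS3, although the 4 proteins form a complex with a single copy of each. GINS1 read 22.7, 32.5 and 14.1 FPKM in control, 7.26, 5.96 and 6.30 in OGD, and 13.7, 19.3 and 18.5 in OGD/R. Control varied more than 2-fold between its libraries, and OGD lay below all of them (log2 fold change -1.61, SE 0.23, adjusted p = 0.000159), the largest fall of the 51. GINS4 read 13.7, 13.9 and 8.67 FPKM in control, 5.40, 4.36 and 4.66 in OGD, and 10.4, 15.0 and 13.2 in OGD/R (log2 fold changes -1.15 and 1.24). GINS2 and GINS3 gave -0.29 and -0.30 in OGD, both scale-dependent, with a sign that turned after median-of-ratios scaling (0.08 and 0.05) and for GINS3 also after quantile normalization (0.03). Both were lost without control replicate 3 or any OGD replicate, and GINS3 also without control replicate 1 (-0.33 to -0.17). The ratio of the most to the least abundant GINS transcript was 2.33 in control, 4.73 in OGD and 1.95 after recovery. Whether the GINS subunits differed from each other was not tested.

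CDC45, the helicase partner of GINS and the most abundant transcript of the activators, read 41.8, 38.5 and 40.5 FPKM in control, 32.1, 31.1 and 32.3 in OGD, and 34.4, 43.9 and 36.6 in OGD/R. Its fall (-0.33, adjusted p = 0.0123) was at the median of all genes (relative -0.02), with a sign that turned after median-of-ratios scaling (0.04). MCM10, which binds the activated helicase, went from 9.50 ± 1.16 to 4.63 ± 0.364 and 10.7 ± 0.841 FPKM (SD, n = 3, log2 fold changes -0.90 and 1.06).

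**Figure D3:**
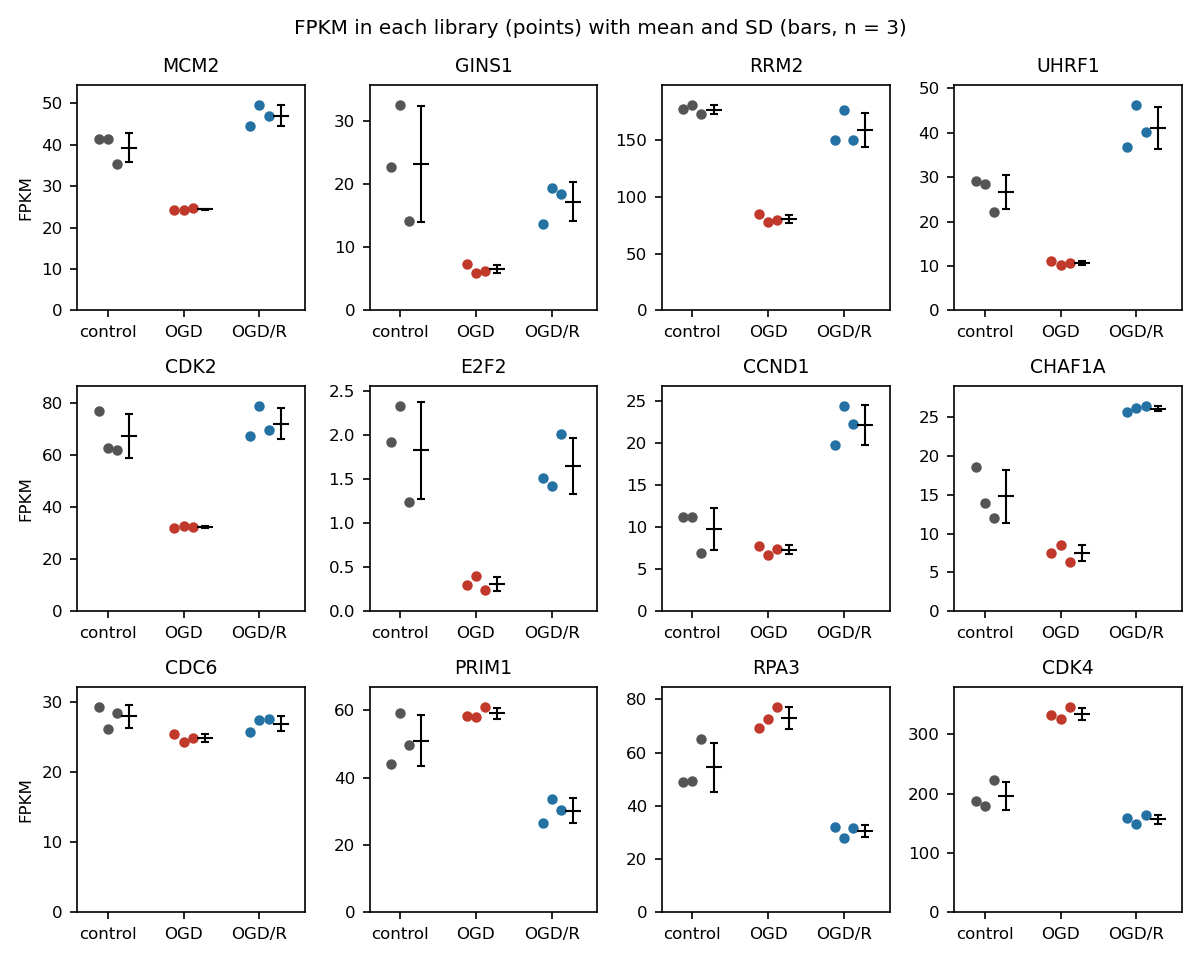
FPKM (vertical axis, from 0) of 12 members in each library (points) with mean and SD (black bars, n = 3) for control, OGD and OGD/R. MCM2, RRM2, UHRF1 and CDK2 show 3 OGD points close together below all others, whereas PRIM1, RPA3 and CDK4 have their lowest points in OGD/R.

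All 6 genes of the clamp and its loader were lower in OGD, as were 46.7% of all genes (median of the 6 -0.51, relative -0.20), and the fall of RFC3 alone held under all 5 scalings. PCNA, the ring that holds polymerases on DNA, had the highest level of the 51 in control: 464, 461 and 517 FPKM, then 313, 305 and 323 in OGD and 393, 463 and 389 in OGD/R. OGD lay below both other groups (log2 fold change -0.61, SE 0.10, adjusted p = 0.000302, scale-dependent). Its rise in OGD/R (0.40, adjusted p = 0.00262) equalled the shift of all genes (relative 0.01) and turned to -0.09 after median-of-ratios scaling. RFC1, the large subunit of the clamp loader, went from 13.6 ± 0.916 to 8.86 ± 0.763 and 17.8 ± 1.85 FPKM and ended above control (log2 fold change 0.36, adjusted p = 0.0216, scale-dependent), a call lost without control replicate 3 (0.31) or OGD/R replicate 2 (0.28). The small subunits RFC2 to RFC5 ranged from -0.66 (RFC3) to -0.29 (RFC2) in OGD, where RFC2 turned to 0.09 after median-of-ratios scaling. Against OGD, the OGD/R values were 0.09 to 0.32, all under the median of all genes of 0.39, and all turned sign after median-of-ratios scaling (-0.39 to -0.16). RFC3 was lower in OGD/R than in control (43.3 ± 7.44 against 54.4 ± 2.56 FPKM, -0.34, adjusted p = 0.0292, scale-dependent). That call was lost without control replicate 1 or 2 or OGD/R replicate 1 or 3 (-0.33 to -0.22). RFC1 is 3537 bases long and RFC2 to RFC5 are 1314 to 2052. The part of length in their contrast was not tested beyond removal of the length trend (below).

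The polymerase genes did not move as a block, and their split ran along transcript length. POLE (7320 bases), POLA1 (5453), POLA2 (3744) and POLD1 (3478) were lower in OGD and higher in OGD/R than in OGD. POLE2 (1411), PRIM1 (1393) and PRIM2 (1360) were not. Level followed length differently between the groups, and its part in this split was not tested beyond removal of the length trend (below). POLE, the catalytic subunit of the leading strand polymerase, read 7.64, 4.27 and 2.598 FPKM in control, 1.55, 1.65 and 2.20 in OGD, and 7.94, 11.7 and 7.01 in OGD/R. Control spread from close to the OGD level to within the OGD/R range, and OGD/R lay above all OGD libraries (log2 fold change 1.80, SE 0.27, adjusted p = 7.54e-05). The difference of OGD/R from control (0.83, adjusted p = 0.0268, scale-dependent) had overlapping groups and was lost without control replicate 2 (0.80) or 3 (0.52) or OGD/R replicate 2 (0.63). POLA1, POLA2 and POLD1, of polymerases alpha and delta, were lower in OGD (log2 fold change -0.72, -0.55 and -0.70, all scale-dependent) and higher in OGD/R (0.83, 0.95 and 0.86, the first scale-dependent). POLE2, the second subunit of polymerase epsilon, read 32.4, 23.8 and 29.3 FPKM in control, 26.0, 25.4 and 26.0 in OGD, and 19.9, 24.4 and 22.3 in OGD/R. POLE2 did not pass in OGD (-0.13, adjusted p = 0.353). It passed with a common library sum (-0.40) or the length trend removed (-0.31), and turned to 0.24 after median-of-ratios scaling. Its difference of OGD/R from control (-0.34, adjusted p = 0.0337) had overlapping groups and was scale-dependent. It was lost without control replicate 1 or 3, OGD replicate 2 or 3, or OGD/R replicate 1 or 3 (-0.35 to -0.25).

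PRIM1, the catalytic primase subunit that lays down RNA primers, read 44.2, 59.2 and 49.6 FPKM in control, 58.3, 58.0 and 61.0 in OGD, and 26.4, 33.8 and 30.4 in OGD/R. Control and OGD overlapped (0.22, adjusted p = 0.122). The difference passed after median-of-ratios scaling (0.60) and without control replicate 2 (0.33), and turned to -0.05 with a common library sum. By contrast OGD/R lay below all other libraries (log2 fold change -0.95 against OGD, SE 0.12, adjusted p = 1.59e-05, and -0.73 against control, adjusted p = 0.000480). Its partner PRIM2 read 25.5 to 33.3 FPKM over the 9 libraries and passed in no comparison with the settings used throughout. In OGD its log2 fold change was -0.22 (adjusted p = 0.0501). It passed with a pseudocount of 0.1 FPKM, with no filter, without control replicate 2 or OGD/R replicate 1 or 2 (-0.24 to -0.22), with a common library sum (-0.49) and with the length trend removed (-0.41), and turned to 0.15 after median-of-ratios scaling. From OGD to OGD/R (0.08) it passed as higher under the same pair of scalings (0.50 and 0.47) and as lower after median-of-ratios scaling (-0.39), which also made it lower than control (-0.24). PRIM1 and POLA1 belong to the same polymerase alpha and primase complex. The ratio of PRIM1 to POLA1 was 5.71, 8.82 and 7.86 in control, 15.1, 15.4 and 16.2 in OGD, and 3.80, 4.18 and 4.03 in OGD/R. PRIM1 is 1393 bases long and POLA1 5453. Level followed transcript length differently between the groups (below), and the part of length in this ratio was not tested.

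The 3 subunits of RPA, the trimer that coats single-stranded DNA, went in different directions. RPA1, the large subunit, fell from 54.5 ± 3.48 to 35.7 ± 1.67 FPKM and returned to 56.1 ± 5.01 (log2 fold changes -0.60 and 0.63, both scale-dependent), the rise turning to -0.04 with length trend and library level removed. RPA2 read 102, 82.2 and 94.6 FPKM in control, 72.8, 73.4 and 73.7 in OGD, and 67.8, 78.4 and 73.8 in OGD/R, so both later groups lay below control (-0.33 in each, scale-dependent, the OGD value turning to 0.05 after median-of-ratios scaling and the OGD/R call lost without OGD/R replicate 1, at -0.28). RPA3, the small subunit, read 49.0, 49.3 and 65.2 FPKM in control, 69.2, 72.7 and 77.1 in OGD, and 31.9, 28.05 and 31.8 in OGD/R. The 3 groups of RPA3 did not overlap: OGD lay above control (0.43, SE 0.11, adjusted p = 0.00707, scale-dependent) and OGD/R below both (-1.23 against OGD, SE 0.11, adjusted p = 1.97e-06, and -0.80 against control, adjusted p = 0.000232). The ratio of RPA3 to RPA1 was 0.840, 0.918 and 1.27 in control, 1.85, 2.14 and 2.15 in OGD, and 0.604, 0.453 and 0.594 in OGD/R. RPA3 is 929 bases long and RPA1 4340. Level followed transcript length differently in the 3 groups (below), and the part of length in this ratio was not tested.

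The Okazaki fragment enzymes FEN1, the flap endonuclease, and LIG1, the ligase, were lower in OGD and higher again in OGD/R. FEN1 read 105, 90.9 and 114 FPKM in control, 73.9, 68.3 and 68.6 in OGD, and 106, 96.8 and 96.2 in OGD/R, with OGD below both other groups. The log2 fold changes of FEN1 were -0.55 and 0.50 (both scale-dependent) and those of LIG1 -0.65 (scale-dependent) and 1.01.

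All 5 genes of dNTP supply were lower in OGD (median -0.63, relative -0.32). RRM2, the S phase subunit of ribonucleotide reductase, read 177, 180.4 and 172 FPKM in control, 84.4, 77.9 and 79.1 in OGD, and 149.9, 176 and 149.9 in OGD/R. Its fall had the smallest adjusted p of the members in that comparison (log2 fold change -1.12, SE 0.09, adjusted p = 2.79e-06), and OGD/R overlapped control. RRM1, the large subunit that is present through the cycle, fell less (-0.51, scale-dependent). The ratio of RRM2 to RRM1 was 1.75, 1.75 and 1.72 in control, 1.18, 1.09 and 1.14 in OGD, and 1.74, 1.84 and 1.58 in OGD/R. TYMS, thymidylate synthase, read 154, 154 and 156 FPKM in control, 98.8, 93.1 and 107 in OGD, and 139.7, 159.7 and 130.2 in OGD/R (log2 fold changes -0.63 and 0.52, the rise scale-dependent). TK1, thymidine kinase, fell from 149.9 ± 3.83 to 92.4 ± 2.37 FPKM and then rose to 127 ± 1.78, a rise of 0.45 that turned to -0.04 after median-of-ratios scaling. Its difference of OGD/R from control (-0.24, scale-dependent) was lost without OGD/R replicate 3 (-0.24).

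DUT, the dUTPase that keeps uracil out of DNA, was lower in OGD than in control and lower again in OGD/R, with both steps scale-dependent. DUT read 149, 142 and 141 FPKM in control, 106, 102 and 109.7 in OGD, and 80.7, 88.6 and 90.8 in OGD/R, and the 3 groups did not overlap. The first step (-0.44, adjusted p = 0.000747) shrank to -0.06 after median-of-ratios scaling. The log2 fold change from OGD to OGD/R (-0.29, SE 0.08, adjusted p = 0.00663) turned to 0.14 with a common library sum and to 0.15 with the length trend removed. That of OGD/R against control (-0.73, SE 0.08, adjusted p = 5.48e-05) kept its call in all 19 alternatives run.

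The chromatin genes fell and then passed the control level, except SLBP. UHRF1, which reads hemimethylated DNA behind the fork and recruits the maintenance methyltransferase, read 29.2, 28.4 and 22.2 FPKM in control, 11.2, 10.3 and 10.6 in OGD, and 36.8, 46.3 and 40.2 in OGD/R. The 3 groups did not overlap (log2 fold changes -1.23, SE 0.12, adjusted p = 1.39e-05, then 1.84, SE 0.12, adjusted p = 1.92e-07, and 0.61 against control, adjusted p = 0.00181), and the rise of 1.84 was the largest of the 51. CHAF1A, the large subunit of the histone chaperone CAF-1, read 18.6, 13.9 and 11.9 FPKM in control, 7.55, 8.49 and 6.38 in OGD, and 25.7, 26.1 and 26.4 in OGD/R. Its groups did not overlap either (-0.89, then 1.68, and 0.80 against control, adjusted p = 0.00119). CHAF1B gave -0.82, 1.20 and 0.38, the last of them scale-dependent and lost without OGD/R replicate 2 (0.34) or 3 (0.37). SLBP, which binds histone mRNA and is the most abundant of the 4, read 80.8, 65.9 and 70.1 FPKM in control, 57.8, 55.1 and 56.2 in OGD, and 49.9, 73.3 and 55.0 in OGD/R. It stayed low in 2 of 3 OGD/R libraries, and its fall in OGD (-0.35, adjusted p = 0.0338) turned to 0.03 after median-of-ratios scaling. That call was lost without control replicate 1 (-0.27) or any OGD replicate (-0.37 to -0.33). SLBP is 1556 bases long, whereas UHRF1, CHAF1A and CHAF1B are 3339 to 4480. The part of length in this contrast was not tested beyond removal of the length trend (below).

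CDK4 and CDK2, the kinases of the D and E cyclins, moved in opposite directions. CDK4 (NCBI Gene 1019, chromosome 12, 57747727 to 57752310) read 188, 179 and 223 FPKM in control, 332, 327 and 346 in OGD, and 159, 149 and 164 in OGD/R. The 3 groups did not overlap, and CDK4 replaced PCNA as the most abundant member in OGD. The log2 fold changes were 0.77 (SE 0.09, adjusted p = 5.87e-05), then -1.09 (SE 0.09, adjusted p = 1.29e-06), and both kept their calls in all 19 alternatives. That of OGD/R against control, -0.31 (adjusted p = 0.0191), was scale-dependent and lost without OGD/R replicate 2 (-0.28). CDK2 read 76.7, 62.6 and 61.9 FPKM in control, 32.1, 32.9 and 32.5 in OGD, and 67.4, 78.7 and 69.6 in OGD/R (log2 fold changes -1.02 and 1.12). The ratio of CDK4 to CDK2 was 2.44, 2.86 and 3.60 in control, 10.3, 9.93 and 10.6 in OGD, and 2.36, 1.90 and 2.35 in OGD/R.

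CCND1, which encodes cyclin D1 (NCBI Gene 595, chromosome 11, 69641156 to 69654474), was the member that most exceeded control after recovery. It read 11.1, 11.2 and 6.88 FPKM in control, 7.74, 6.74 and 7.46 in OGD, and 19.7, 24.4 and 22.3 in OGD/R. Control and OGD overlapped (-0.34, adjusted p = 0.0842, passing without control replicate 3, at -0.56, or with a common library sum, at -0.62, and turning to 0.03 after quantile normalization), and OGD/R lay above both (1.47 against OGD, SE 0.16, adjusted p = 7.10e-06, and 1.13 against control, SE 0.16, adjusted p = 0.000251). The E cyclins did not follow. CCNE1 read 10.04, 10.5 and 9.41 FPKM in control, 5.55, 5.49 and 6.203 in OGD, and 7.20, 7.92 and 8.05 in OGD/R. Its groups did not overlap, and it ended between the others (-0.33 against control, adjusted p = 0.0298, scale-dependent, lost without control replicate 2 or any OGD/R replicate, at -0.36 to -0.29), while its rise of 0.37 turned to -0.06 after median-of-ratios scaling and to -0.18 after quantile normalization. CCNE2 read 38.1, 19.3 and 25.0 FPKM in control, 17.7, 17.7 and 17.3 in OGD, and 15.9, 21.4 and 17.6 in OGD/R. Its control libraries spread about as widely as the differences, and its calls in OGD (-0.56, adjusted p = 0.0234) and in OGD/R against control (-0.52, adjusted p = 0.0461) were both scale-dependent and lost without control replicate 1 (-0.31 and -0.26). The first was also lost without OGD replicate 2 or 3 (-0.57 and -0.55), and the second without each other library but control replicate 2 and OGD/R replicate 2 (-0.55 to -0.43). CDC25A, the phosphatase that activates CDK2, fell from 7.10 ± 1.87 to 3.74 ± 0.205 FPKM and rose to 6.64 ± 0.847 (-0.75 and 0.68, both scale-dependent).

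E2F1 and E2F2, the activator E2F factors among the members, were lower in OGD. E2F1 read 36.3, 34.4 and 28.1 FPKM in control, 22.7, 23.1 and 22.5 in OGD, and 27.1, 26.8 and 30.4 in OGD/R. OGD lay below both other groups (-0.51, SE 0.11, adjusted p = 0.00162, scale-dependent), and the rise of 0.29 turned to -0.18 after median-of-ratios scaling and to -0.05 with length trend and library level removed. That rise was lost without any OGD replicate (0.28 to 0.30) or OGD/R replicate 3 (0.23). E2F2 was the least abundant member in all groups, at 1.92, 2.33 and 1.24 FPKM in control, 0.297, 0.400 and 0.243 in OGD, and 1.51, 1.42 and 2.01 in OGD/R. OGD lay below both (log2 fold changes -1.09, SE 0.16, adjusted p = 0.000192, then 1.01, SE 0.16, adjusted p = 0.000121). The rise was scale-dependent (0.22 with length trend and library level removed), and adding 1 FPKM before the log understates these changes at so low a level.

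**Figure D4:**
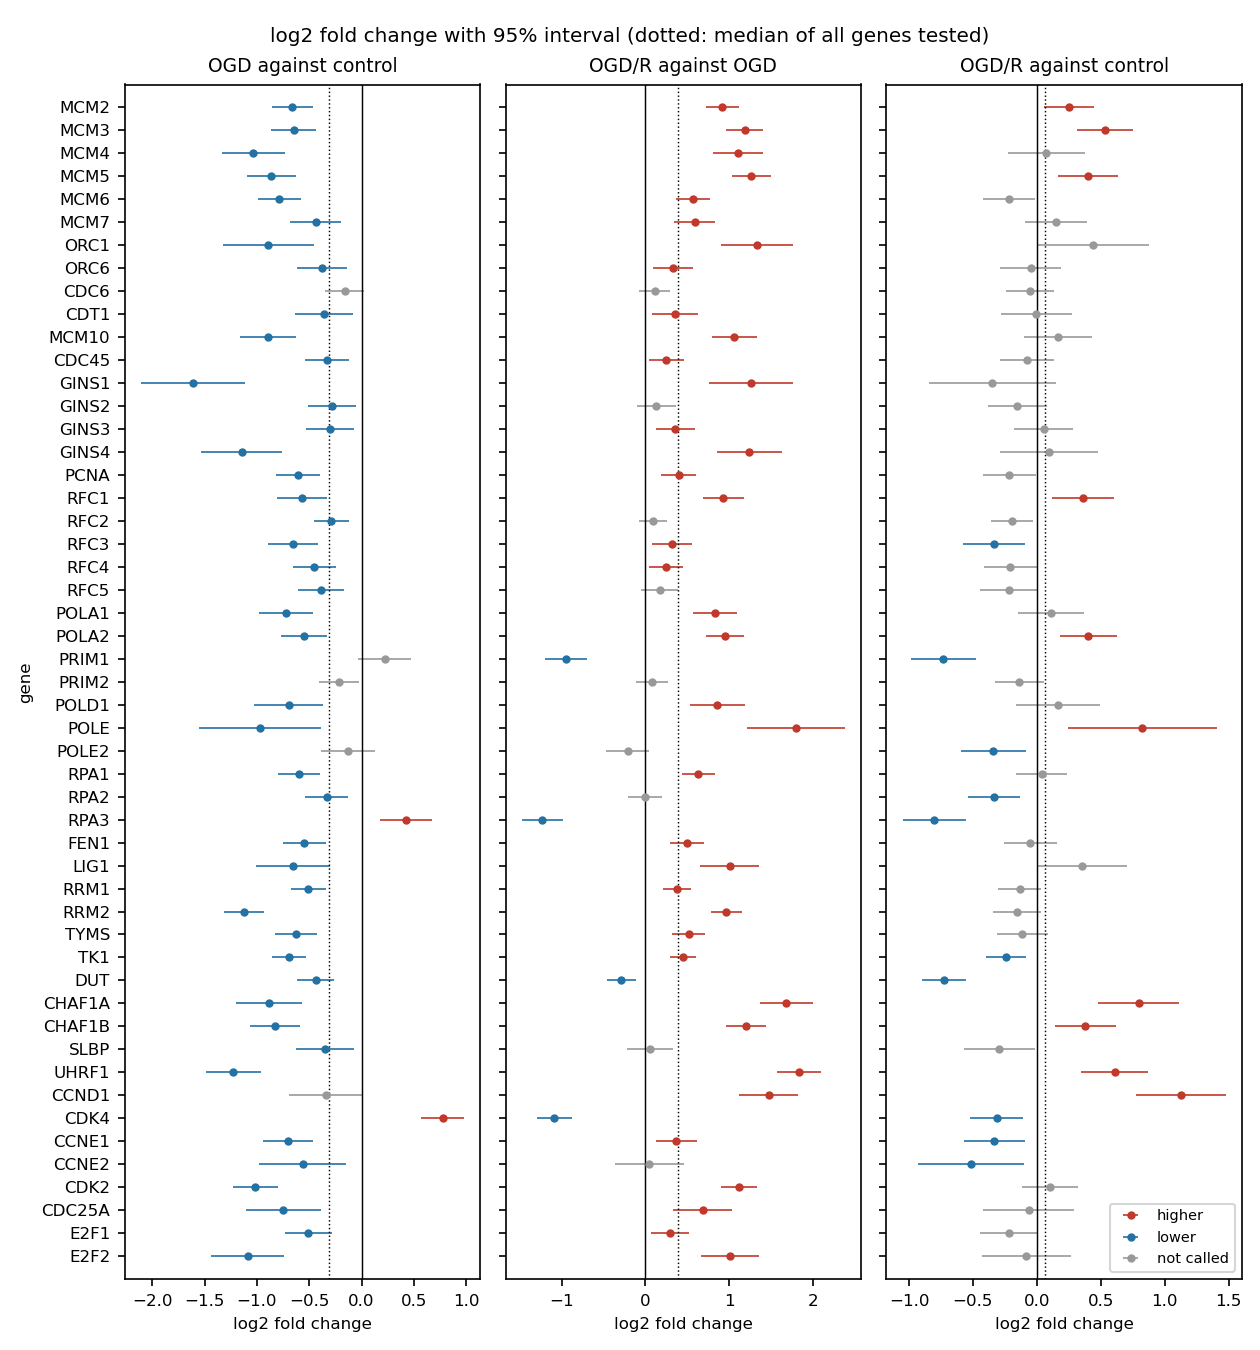
Log2 fold change (horizontal axis, points) with its 95% interval (lines) for the 51 members in the 3 comparisons, coloured by call (red higher, blue lower, grey neither). The dotted line is the median of all genes tested (-0.31, 0.39 and 0.07). Most members lie left of 0 in OGD against control and right of it in OGD/R against OGD, with CDK4, RPA3 and PRIM1 on the other side (PRIM1 not past the threshold in OGD, and at -0.05 there with a common library sum).

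Log2 fold changes followed transcript length, among the members as in the whole table. Across genes, which are not independent replicates and share their libraries, Spearman's rho between length and fold change was -0.58, 0.66 and 0.62 over the 51 members in the 3 comparisons, against -0.38, 0.52 and 0.42 over 10800 genes. Split at the members' median length of 2673 bases, the 25 shorter ones had a median of -0.39 in OGD and the 26 longer ones -0.77, where all genes split there had -0.14 and -0.45. From OGD to OGD/R the medians were 0.25 and 0.99 for members and 0.07 and 0.67 for all genes. All 10 members that were lower in OGD/R than in control were among the 25 shorter, and 9 of the 10 higher ones among the 26 longer. RPA3, at 929 bases the shortest member, PRIM1 (1393 bases) and CDK4 (1428 bases) stood with the shorter genes, and POLE (7320 bases) was the longest. With the length trend removed from each library, PRIM1, RPA3 and CDK4 kept their falls from OGD to OGD/R. RPA3 in OGD against control did not keep its rise. The slope of log2 level on length, per doubling, was -0.23 to -0.18 in OGD, 0.15 to 0.26 in OGD/R and -0.08 to 0.06 in control, and its part in these results was tested only through this removal.

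**Figure D5:**
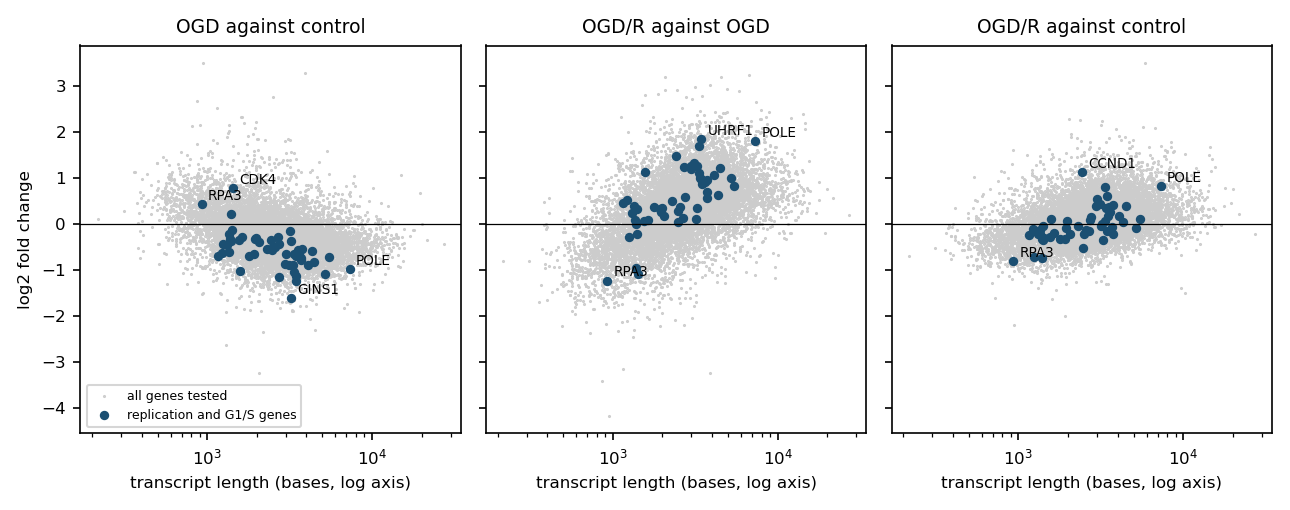
Log2 fold change (vertical axis) against transcript length (bases, log axis) for all genes tested (grey) and the 51 members (blue) in the 3 comparisons. In OGD against control members fall with length (rho -0.58) and in the other comparisons they rise with it (0.66 and 0.62), as the grey points also do.

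The members' median coefficient of variation between replicates was lowest in OGD (4.20%), then OGD/R (8.99%) and control (11.5%). Over all genes tested it was 7.70%, 10.7% and 15.1%. The sets were not matched for level, so the lower values are not shown to be a trait of replication genes. POLE (53.1%), GINS1 (39.8%) and CCNE2 (35.2%) varied most in control. Control replicate 3 was the lowest control library for 30 of 51 members (48.1% of all genes tested), and OGD/R replicate 1 was the lowest and replicate 2 the highest OGD/R library for 37 each (61.4% and 61.3% of all genes).

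Other genes of replication and the G1/S transition, from a list of 77 of which 75 were tested, were counted in the same fit. In OGD 53 were lower and 5 higher (median -0.56), in OGD/R against OGD 47 were higher and 15 lower (0.54), and between OGD/R and control 13 were higher and 25 lower (-0.11). Over all genes tested 46.7% were lower and 11.3% higher in OGD, and 53.3% higher and 17.4% lower in OGD/R against OGD. Between OGD/R and control 24.7% were higher and 16.5% lower. Relative medians of the list were -0.25, 0.15 and -0.18. For the list, median-of-ratios scaling gave 34 lower and 16 higher in OGD, then 31 higher and 26 lower. The shares of all genes under that scaling are given above. The falls were led by ASF1B, a histone chaperone (133 ± 11.1 to 46.6 ± 3.30 FPKM, log2 fold change -1.49), SKP2, the ubiquitin ligase subunit that targets p27 (-1.38), and SAMHD1, a dNTP hydrolase (-1.34). The highest called in OGD were POLE4, a small subunit of polymerase epsilon (60.3 ± 16.4 to 86.0 ± 6.27 FPKM, 0.54), CDK7, the CDK-activating kinase (0.51), and RNASEH2C, of ribonuclease H2 (0.46), and all 3 of these rises were scale-dependent. After recovery SAMHD1 (1.90), DNMT1, the maintenance methyltransferase (1.89), and the histone chaperone NASP (1.85) rose most, and POLE4 (-1.05), CKS1B, a CDK-binding subunit (-0.88), and RNASEH2B (-0.84) fell most against OGD. Against control DNMT1 (16.5 ± 3.38 to 42.3 ± 5.42 FPKM, 1.31), E2F3 (0.65) and CLSPN, a fork checkpoint adaptor (0.62), were highest, and PCLAF, a PCNA-binding protein (-0.96), CDKN2D (-0.80) and CKS1B (-0.67) lowest. The other changes named here held under all 5 scalings.

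Of the CDK inhibitors, which brake the G1/S kinases, 0 of 6 tested were higher in OGD and 5 were lower: CDKN1A, p21 (114 ± 8.11 to 90.9 ± 4.90 FPKM, log2 fold change -0.32, scale-dependent, 0.06 after median-of-ratios scaling), CDKN1B, p27 (44.3 ± 5.09 to 29.5 ± 1.01, -0.56), CDKN2B (12.8 ± 1.55 to 6.87 ± 0.522, -0.80), CDKN2C (135 ± 9.40 to 60.0 ± 3.17, -1.15) and CDKN2D (34.5 ± 5.96 to 13.6 ± 1.39, -1.27). Over all genes tested 46.7% were lower and 11.3% higher there. Median-of-ratios scaling gave 4 of the 6 lower and 1 higher. With the length trend removed all 6 were lower, CDKN2A among them. CDKN2A read 617 ± 58.9 FPKM in control and 655 ± 34.7 in OGD, which did not pass (adjusted p = 0.439), and then fell to 406 ± 11.7 in OGD/R (-0.69, scale-dependent). The other 5 rose from OGD to OGD/R (0.46 to 0.97), where 53.3% of all genes were higher. Of those rises only that of CDKN2B held under all 5 scalings, and that of CDKN1A turned to -0.03 after median-of-ratios scaling. In OGD/R against control 0 of the 6 were higher and 3 lower, against 24.7% and 16.5% of all genes. These were CDKN2A, CDKN2C and CDKN2D, each lower under all 5 scalings. CDKN1C stayed under the filter, at 0.0256 to 0.421 FPKM.

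Mitosis and G2/M genes were set beside them as the other wave of the cell cycle. Of 30 tested, 29 were lower in OGD and 0 higher (median -0.85, against -0.60 for the members), 27 were higher and 1 lower in OGD/R against OGD (0.90 against 0.52), and 10 were higher and 8 lower in OGD/R against control (0.04 against -0.06). The shares over all genes tested were 46.7% lower and 11.3% higher in OGD, then 53.3% higher and 17.4% lower. For OGD/R against control they were 24.7% higher and 16.5% lower. Under the 5 scalings 26 to 30 of the mitosis and G2/M genes were lower in OGD and 18 to 29 higher in OGD/R against OGD. Median-of-ratios scaling gave 26 lower and 0 higher, then 18 higher and 3 lower. Quantile normalization gave 30 lower, then 28 higher and 0 lower. Shares of all genes under this pair of scalings are given above. Those under the others are not printed, so the range has no background beside it. The difference between these lists was not tested.

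Some members share exon bases with another gene, and whether strand was used in counting is not given, so their values are uncertain. By GENCODE 12 members overlapped another gene over at least 10% of their exon bases. POLA2 shared 35.1% with AP000944.2 and RRM2 20.2% with AC007240.1. Both partners are coding genes in GENCODE on the member's own strand, and their levels are not given here. CDK4 shared 43.2% with TSPAN31, which lies on the other strand and read 5.74 to 10.7 FPKM, far under CDK4. TYMS shared 39.1% with ENOSF1 (6.10 to 11.6 FPKM) and CCNE2 37.0% with INTS8 (13.6 to 38.5 FPKM, about as high as CCNE2). CCND1 shared 10.3% with LTO1, which was highest where CCND1 was (9.55 to 12.5 FPKM in OGD/R, 4.41 to 8.33 in control, 6.81 to 8.72 in OGD). PRIM1 shared 14.9% with AC117378.1, a coding gene in GENCODE, and 33 exon bases with NACA, both on its own strand, and NACA read 351 to 1323 FPKM, highest in OGD. Pseudogenes named for a member exist for 9 members, DUT with 8 and PCNA, RPA2 and RRM2 with 3 each, with which reads may be shared.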

How the data were processed

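RNA from 9 hCMEC/D3 samples (3 groups of 3) was sequenced from SMARTer mRNA libraries, per the labels' protocols. The authors deposited one table of FPKM per gene, on GRCh38 per the submitters' processing notes. Aligner, quantifier, annotation and use of strand were not given in the sources used here, and read depth is unknown, so FPKM allows no counting interval.

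Tests ran on log2(FPKM + 1) in limma 3.58.1 (R 4.3.3, lmFit and eBayes with an intensity trend), in 1 fit of 3 groups over the 9 libraries with 6 residual degrees of freedom. Tests were two-sided, p-values were adjusted by Benjamini-Hochberg over 10818 genes that reached 1 FPKM in 3 or more libraries, and 0.05 was the threshold. A fold change on this scale understates that of low genes. The 3 comparisons share libraries. Nothing states that replicates came from separate cultures, so p-values measure only the spread of these samples, possibly a technical one. Replicate numbers did not pair samples across groups (Pearson's r of their deviations -0.20 to 0.15).

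The members and all gene lists were chosen with earlier results of these data known. A member has its value in every library printed if it had 1 of the 5 largest called changes in either direction of a comparison, had the highest mean of its role, or was on a set list of 14 textbook E2F and G1/S genes. Other replication genes were named for the 3 largest called changes in either direction, with all CDK inhibitors. Alternatives were 18 planned settings (pseudocount, filter, 3 scalings, length trend, prior, block and each library left out) and 1 added after the data were seen, in which length trend and library level were both removed. Promoter windows are from RefSeq (GRCh38.p14), with a window for 43 of the 51 members. Transcript lengths and exon overlaps are from GENCODE, matched by symbol.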

Additional observations from a re-analysis of the deposited data

How the results depend on the processing

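Of 46 members called in OGD against control, 20 kept their call in all 19 alternatives, as did 22 of 42 in OGD/R against OGD and 8 of 20 in OGD/R against control. How many of all genes tested kept theirs is not given. Pseudocount, prior and intensity trend moved at most 2 members across the threshold in any comparison. The number of reads is unknown, so how far depth limits low genes such as E2F2 could not be assessed, and the cause of each shift below was not tested.

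In OGD against control median-of-ratios scaling gave 25 lower and 4 higher members (median log2 fold change -0.22). Quantile normalization gave 29 lower (median -0.42), as did the fit with length trend and library level removed (median -0.31). A common library sum left 1 higher (median -0.87), and removal of the length trend alone also 1. In OGD/R against OGD median-of-ratios scaling gave 21 higher and 15 lower (median 0.029). With length trend and library level removed 25 were higher (median 0.22), while a common library sum gave a median of 0.94. In OGD/R against control 20 were lower after median-of-ratios scaling, 3 with a common library sum (where the median turned to 0.070) and 5 with the length trend removed, and 6 were higher with the length trend removed or 5 with library level removed too. Leaving out 1 library gave 5 to 14 lower and 6 to 13 higher there, with 5 lower without OGD/R replicate 1 or 3 and 6 higher without OGD/R replicate 2. On the deposited scale 24.7% of all genes were higher and 16.5% lower in this comparison. Shares of all genes also moved with the scaling, as given above for median-of-ratios scaling and quantile normalization in the comparisons with OGD. For the other settings they are not printed, so the counts in this section are not results about the members alone.

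Sign turns of members that passed in the deposited-scale fit or in the alternative were these. In OGD against control median-of-ratios scaling gave CDC6 0.21, CDC45 0.043, GINS2 0.083, GINS3 0.054, RFC2 0.086, RPA2 0.048 and SLBP 0.030, and quantile normalization GINS3 0.034. From OGD to OGD/R median-of-ratios scaling gave ORC6 -0.15, CDC6 -0.36, CDT1 -0.10, CDC45 -0.23, GINS2 -0.34, GINS3 -0.10, PCNA -0.093, RFC2 -0.39, RFC3 -0.16, RFC4 -0.24, RFC5 -0.30, PRIM2 -0.39, RRM1 -0.11, TK1 -0.036, SLBP -0.43, CCNE1 -0.056, CCNE2 -0.42 and E2F1 -0.18. Quantile normalization gave CDT1 -0.10, GINS3 -0.079 and CCNE1 -0.18 there. A common library sum gave RPA2 0.42 and DUT 0.14, and removal of the length trend RPA2 0.37 and DUT 0.15. With library level removed too, MCM6 was -0.017, CDC6 -0.38, CDT1 -0.14, RPA1 -0.042 and E2F1 -0.049 against OGD, and RPA1 -0.21 against control. Others that passed in neither also turned sign, such as POLE2, PRIM2, PRIM1 and CCND1 in OGD.

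With the replicate number as a block, a fit of samples that share only a number, 42 members were lower and 2 higher in OGD against control, 36 higher and 4 lower in OGD/R against OGD, and 9 higher and 7 lower in OGD/R against control. The shares of all genes called in that fit are not printed. Not every library correlated best with its own number.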
